A study of Mus musculus with 9 samples.

Results

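Chemokines and interleukins are secreted proteins through which cells call in and instruct immune cells, and their receptors let fibroblasts respond in turn. The 125 genes described here are the rows of the count table, which lists 24062 genes, whose symbol names a CC or CXC chemokine other than Cxcl14, an interleukin or its receptor, together with Cx3cl1, Csf1, Csf2, Csf3, Lif and Lifr. They were split by textbook role into 78 genes for secreted ligands, 41 for receptors, 4 for secreted antagonists or binding proteins and 2 that are neither. RNA was sequenced from mouse embryonic fibroblasts (MEFs, primary connective tissue cells) of the C57BL/6 strain, in 3 groups of 3 libraries. The p21 cells overexpressed the inhibitor of cyclin-dependent kinases encoded by Cdkn1a, the p16 cells overexpressed that encoded by Cdkn2a, and the control cells had received the empty vector. All were harvested on day 10. The labels name a lentivirus for the p21 and control cells, and not for the p16 cells. Their status field reads senescent for the control cells as well. Separate cultures for the replicates are not stated, so a p-value here covers the spread among the libraries, which between replicates 1 and 2 may be technical. Replicate 3 differed from them in sex-linked RNA, as given below.

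CC and CXC chemokines attract leukocytes along a gradient by binding receptors with multiple membrane passes on their surface. Many interleukins and some colony-stimulating factors bind receptors that signal through Janus kinases and STAT proteins. Receptors of the interleukin 1 family signal through the adaptor MyD88, and Csf1 and Il34 act through their own receptor, Csf1r. Many of these ligands belong to the secretome that senescent fibroblasts are known for, whose classical members include Il6, Il1a, Cxcl1 and Ccl2, and NF-kB is a known activator of several of their genes.

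The libraries held 56864342 to 76054820 counts, so that 3 reads, taken as the limit that a count of 0 allows, stood for 0.0391 to 0.0525 CPM (counts scaled to a common library total after TMM scaling). Each overexpressed gene was high in the libraries labelled with it: Cdkn1a averaged 1130 CPM in p21 cells, 419.5 in p16 cells and 366 in control cells, and Cdkn2a averaged 95.6, 1017 and 63.1 CPM in the same order. Replicate 3 of every group carried Xist, which is transcribed from an inactive X, at 158 to 397 CPM, against at most 1.34 CPM in the other 6 libraries. Ddx3y, a gene of the Y chromosome, was at 50.1 to 68.5 CPM in those 6 libraries. In replicate 3 of p21, p16 and control cells it was at 10.8, 1.26 and 1.10 CPM, and Xist at 158, 262 and 397 CPM. Replicate 3 thus differed from replicates 1 and 2 in every group, but not to the same degree in p21 cells as in the others. Replicates 1 and 2 alone are therefore given where they change a call. Fibroblast markers summed to at least 25126 CPM in every library. The 16 macrophage markers in the table summed to 26.4 to 47.2 CPM in p21 libraries, 11.1 to 15.4 CPM in p16 libraries and 13.6 to 16.6 CPM in control libraries. By the test given below 9 of the 13 tested (69.2%) were called higher in p21 than in control cells and none lower. Of all genes tested 19.3% were called higher. Among the markers C1qa stood at 1.501 to 2.52 CPM in p21, 0.262 to 0.640 CPM in p16 and 0.352 to 0.934 CPM in control libraries. Cd14 was not called and averaged 2.68 CPM in p21 and 2.84 CPM in control cells. Fcgr1, Aif1 and Cd163 had too few reads to test, Cd163 with none in control libraries. Many cytokine genes are also expressed by macrophages, and the part of these cells in the results below was not tested. In bulk RNA, fewer cells of a type and less RNA per cell cannot be told apart.

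Most of the family was silent or nearly so. Of the 125 genes, 19 had no read in any library, 47 more had too few reads to test and at most 62 over the 9 libraries, and 59 passed the filter, 33 for ligands, 24 for receptors and 2 for antagonists. The filter asked for about 10 reads, 0.143 CPM, in at least 3 libraries, and 6 of the 59 reached that level in every library of 1 group alone. The rows left untested include 4 that are classical or prominent: Il1b had 1 read in all, Csf2 (granulocyte-macrophage colony-stimulating factor) had 8, Ccl8 had 31, and Il4i1, an amino acid oxidase gene named for its induction by interleukin 4, had 12. Of the 31 Ccl8 reads, 20 and 8 were in p21 replicates 1 and 3 and none in p21 replicate 2. Per kb of exon, the most abundant ligand transcript was that of Csf1, which drives macrophage survival and growth, at 286, 230 and 181 CPM per kb in p21, p16 and control cells. The next were Cxcl12 (38.1, 60.7 and 56.4 CPM per kb in that order), Ccl7 (62.8, 44.1 and 34.3) and Ccl2 (32.8, 28.7 and 25.1). The most abundant receptor transcripts per kb were Il1rl1 (21.1, 22.8 and 50.3), Il4ra (30.0, 24.6 and 23.8) and Il6st (17.4, 21.3 and 26.9).

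Cells given p21 were first set against cells given the empty vector. Of the 33 ligand genes tested, 10 rose and 1 fell in p21 cells, while of the 24 receptor genes tested 2 rose and 8 fell (edgeR's quasi-likelihood test, Benjamini-Hochberg adjusted p below 0.05 over 14572 genes). Over all genes tested 39.9% passed, 19.3% as higher and 20.7% as lower. The 11 ligand genes are 33.3% of those tested, 30.3% as higher and 3.03% as lower, and the 10 receptor genes are 41.7%, 8.33% as higher and 33.3% as lower. Both total shares lay near the background, and the difference in direction between ligand and receptor genes was not itself tested. The median log2 fold change was 0.17 over the ligand genes and -0.25 over the receptor genes, against -0.01 over all genes tested. These counts cover only genes that passed the filter and are a description of these libraries. Between the p21 and control libraries 20 of the 59 tested members (33.9%) did not overlap, against 49.8% of all genes tested (24% above and 25.7% below). The fold changes called lay between 1.26-fold and 3.07-fold.

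**Figure D1:**
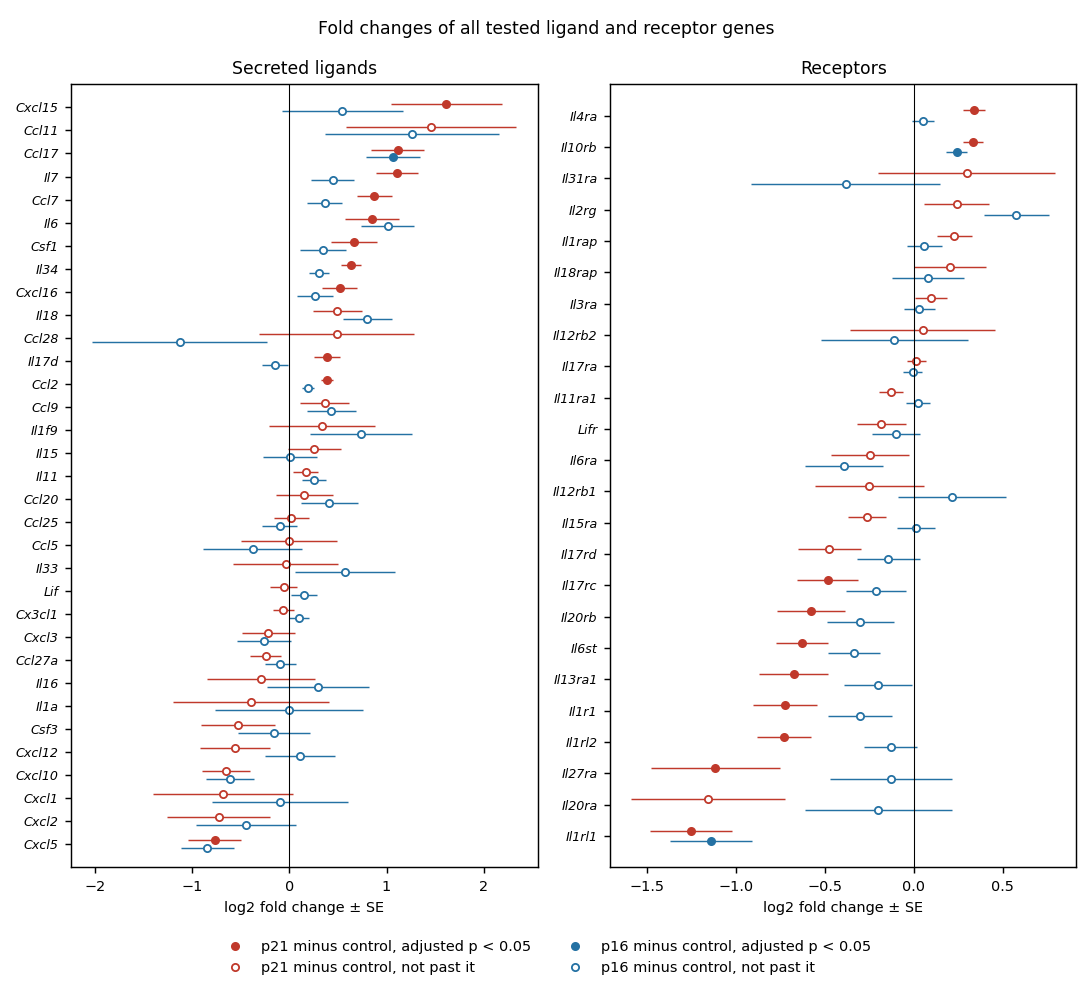
The log2 fold change with its standard error (x axis) is plotted for each tested ligand gene (left) and receptor gene (right), in red for p21 minus control and blue for p16 minus control, with filled points past the threshold. Filled red points lie mostly above 0 among ligands (10 of 11) and below 0 among receptors (8 of 10), while 3 blue points are filled.

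Among CC chemokines 3 of 10 tested genes rose with p21 and none fell (30%, against 39.9% of all genes tested, 19.3% as higher). Ccl2 and Ccl7 encode monocyte chemoattractants and lie next to each other (chr11:82035571-82037453 and chr11:82045712-82047525, plus strand, GENCODE M21 on GRCm38). Ccl2 was at 38.5, 34.5 and 38.8 CPM in the p21 libraries, 34.7, 32.4 and 30.8 CPM in the p16 libraries and 27.6, 29.6 and 28.5 CPM in the control libraries. All p21 values stood above all control values, and Ccl2 was 1.30-fold higher (log2 fold change 0.38 ± 0.06 SE, adjusted p = 0.00128). Ccl7 was at 58.3, 49.3 and 43.2 CPM in p21, 42.5, 34.2 and 29.2 CPM in p16 and 33.5, 27.3 and 21.6 CPM in control libraries. Its 3 p21 libraries were again the highest, and it was 1.83-fold higher in p21 than in control cells (0.87 ± 0.18 SE, adjusted p = 0.004). Ccl17, a ligand that attracts T cells through Ccr4, was scarce at 1.69, 1.88 and 1.21 CPM in p21, 1.41, 1.64 and 1.58 CPM in p16 and 1.004, 0.728 and 0.474 CPM in control libraries. It was 2.17-fold higher in p21 than in control cells (1.12 ± 0.27 SE, adjusted p = 0.0098). These 3 calls held under all 17 alternatives. Monocytes and macrophages can express these genes too, and their marker sum was the highest in p21 libraries (26.4 to 47.2 CPM). No tested macrophage marker was called between p16 and control cells, which does not show equal levels. The median log2 fold change of the 13 tested was -0.39 there, with 2 of them positive. Ccl5, a T cell attractant of the classical secretome, averaged 0.258 ± 0.125, 0.199 ± 0.0965 and 0.258 ± 0.0740 CPM in p21, p16 and control cells (SD, n = 3) and passed in no comparison.

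Among the 9 tested CXC and CX3C chemokines 2 rose and 1 fell with p21 (33.3%, against 39.9% of all genes tested). Cxcl5, which attracts neutrophils, was at 31.2, 19.7 and 19.7 CPM in p21, 31.1, 19.5 and 16.5 CPM in p16 and 48.8, 42.5 and 29.2 CPM in control libraries. The p21 and control values overlap, and within each replicate number the control library was the highest. It was 1.70-fold lower in p21 than in control cells (-0.77 ± 0.27 SE, adjusted p = 0.0474), and the adjusted p was between 0.0624 and 0.145 without p21 replicate 2 or 3, p16 replicate 2, or control replicate 1 or 2, and 0.0647 with DESeq2. Cxcl16, a transmembrane chemokine that is shed and binds Cxcr6, was at 1.64, 1.52 and 2.10 CPM in p21, 1.36, 1.36 and 1.67 CPM in p16 and 1.25, 1.09 and 1.32 CPM in control libraries. The p21 and control libraries did not overlap, and it was 1.43-fold higher in p21 than in control cells (0.52 ± 0.18 SE, adjusted p = 0.0466). That call was lost without p21 replicate 1 or 3, p16 replicate 1 or 2, or any control library (adjusted p 0.0588 to 0.152) and in replicates 1 and 2 alone (0.139). The exons of Cxcl16 overlap those of Zmynd15 on the other strand by at least 552 bases. Cxcl15 rested on 112 reads in all. It was at 0.289, 0.263 and 0.385 CPM in p21, 0.164, 0.0587 and 0.218 CPM in p16 and 0.0261, 0.151 and 0.126 CPM in control libraries, and was 3.07-fold higher in p21 than in control cells (1.62 ± 0.57 SE, adjusted p = 0.0473). Its call was lost without any p21 or control library and without p16 replicate 1 (adjusted p 0.0556 to 0.115), and in replicates 1 and 2 alone (0.115). Cxcl15 reached the filter's limit in all 3 libraries of p21 cells alone, the group where it was high, so that its count among the risen genes is no support.

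The other CXC chemokines of the classical secretome were not called. Cxcl1 and Cxcl2, neutrophil attractants, were scarce, with Cxcl1 at 0.689, 0.321 and 0.560 CPM in p21, 1.62, 0.176 and 0.581 CPM in p16 and 1.38, 0.316 and 0.823 CPM in control libraries. Cxcl2 averaged 0.160 ± 0.0672, 0.192 ± 0.101 and 0.263 ± 0.115 CPM in p21, p16 and control cells (SD, n = 3). Cxcl10, an interferon-inducible attractant of T cells, was at 0.317, 0.438 and 0.455 CPM in p21, 0.426, 0.367 and 0.451 CPM in p16 and 0.548, 0.659 and 0.697 CPM in control libraries, the last above all others (adjusted p = 0.0602 between p21 and control by edgeR). Cx3cl1, the membrane-bound chemokine fractalkine, averaged 57.6 ± 7.84, 64.4 ± 5.01 and 60.2 ± 5.91 CPM in p21, p16 and control cells. Cxcl12, which holds leukocytes and stem cells in their niches through Cxcr4, was at 213, 271 and 452 CPM in p21, 349, 430 and 710 CPM in p16 and 303, 416 and 663 CPM in control libraries. Within each replicate number the p21 library was the lowest, but replicate 3 was so much above replicates 1 and 2 that the groups overlapped (log2 fold change -0.56, adjusted p = 0.242). In replicates 1 and 2 alone the log2 fold change was -0.57 ± 0.17 SE with an adjusted p of 0.0264. In a fit with the replicate number as a block it was -0.56 (adjusted p = 3.34e-06 by edgeR).

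**Figure D2:**
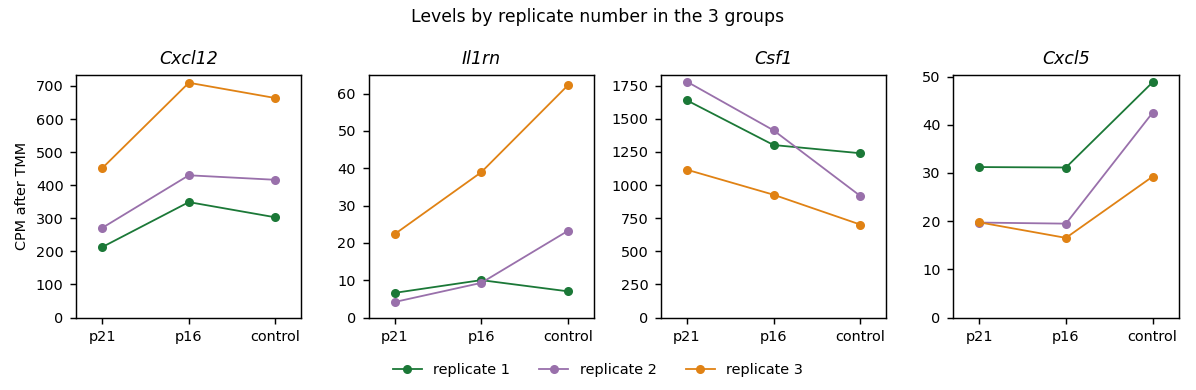
CPM after TMM (y axis, from 0) of Cxcl12, Il1rn, Csf1 and Cxcl5 in p21, p16 and control cells, with lines joining libraries that share a replicate number. Replicate 3 is the highest line for Cxcl12 and Il1rn and the lowest for Csf1, and the p21 library is the lowest of its number for Cxcl12 (213, 271 and 452 CPM).

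Of 11 tested interleukin ligand genes 4 rose with p21 and none fell (36.4%, against 39.9% of all genes tested, 19.3% as higher). Il34 (chr8:110741829-110805924, minus strand) encodes a ligand of the receptor Csf1r that it shares with Csf1. It was at 7.89, 8.38 and 7.65 CPM in p21, 6.75, 6.63 and 5.67 CPM in p16 and 5.05, 4.84 and 5.55 CPM in control libraries, so that all p21 libraries stood above every other. It was 1.55-fold higher in p21 than in control cells (0.63 ± 0.10 SE, adjusted p = 0.000983). Il7 (chr3:7569994-7613760, minus strand), a survival factor of lymphocytes made by stromal cells, was at 2.46, 3.01 and 2.17 CPM in p21, 1.67, 1.92 and 1.24 CPM in p16 and 1.004, 1.44 and 1.10 CPM in control libraries. It was 2.16-fold higher in p21 than in control cells (1.11 ± 0.22 SE, adjusted p = 0.00328), and its exons share at least 105 bases with an antisense gene, Gm16685. Il17d, a member of the interleukin 17 family, was at 5.12, 4.996 and 4.18 CPM in p21, 3.49, 3.56 and 2.83 CPM in p16 and 3.70, 3.90 and 3.32 CPM in control libraries. It was 1.31-fold higher in p21 than in control cells (0.39 ± 0.13 SE, adjusted p = 0.0407). The call did not survive the removal of p21 replicate 1 or 2, p16 replicate 1 or any control library (adjusted p 0.0533 to 0.127).

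Il6, the best known interleukin of the senescence secretome, was present at low level. It was at 1.69, 1.65 and 3.26 CPM in p21, 2.23, 2.45 and 2.66 CPM in p16 and 1.24, 0.962 and 1.44 CPM in control libraries. Every p21 and p16 library stood above every control library, and p21 replicate 3 was far above the other p21 libraries. Il6 was 1.80-fold higher in p21 than in control cells (0.85 ± 0.27 SE, adjusted p = 0.0335), with an adjusted p between 0.0613 and 0.110 and a log2 fold change as low as 0.47 when p21 replicate 3, control replicate 1 or control replicate 2 was left out, and an adjusted p of 0.0536 in replicates 1 and 2 alone. The interleukin 1 ligand Il1a was scarce and averaged 0.128 ± 0.119, 0.177 ± 0.131 and 0.175 ± 0.0750 CPM in p21, p16 and control cells. Il15, which supports natural killer cells, averaged 1.01 ± 0.325, 0.848 ± 0.135 and 0.844 ± 0.139 CPM, and Il11, a profibrotic relative of Il6, 12.2 ± 2.18, 12.9 ± 1.04 and 10.8 ± 0.829 CPM in the same groups (SD, n = 3). None of these 3 passed in any comparison.

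Of the colony-stimulating factors and Lif, 3 were tested and 1 rose (33.3%, against 39.9% of all genes tested, 19.3% as higher). Csf1 (chr3:107741048-107760469, minus strand), macrophage colony-stimulating factor, was at 1639, 1780 and 1115 CPM in p21, 1302, 1413 and 927 CPM in p16 and 1240, 918 and 702 CPM in control libraries. The groups overlapped because replicate 3 was the lowest library of each group, and within each replicate number the order was p21, then p16, then control. Csf1 was 1.59-fold higher in p21 than in control cells (0.66 ± 0.24 SE, adjusted p = 0.0479). The call was lost without p21 or p16 replicate 1 or 2 or control replicate 2 or 3 (adjusted p 0.0544 to 0.145). Lif, a cytokine of the Il6 family, averaged 35.7 ± 7.30, 41.2 ± 2.71 and 37.2 ± 4.76 CPM in p21, p16 and control cells (SD, n = 3). Of the 2 tested antagonists neither passed. Il1rn, the interleukin 1 receptor antagonist, was at 6.61, 4.16 and 22.3 CPM in p21, 10.0, 9.29 and 38.9 CPM in p16 and 7.03, 23.2 and 62.2 CPM in control libraries, with replicate 3 the highest of each group (adjusted p = 0.199 between p21 and control, and 0.0337 with replicates 1 and 2 alone). Il18bp, which neutralises interleukin 18, averaged 0.887 ± 0.199, 0.945 ± 0.201 and 1.28 ± 0.255 CPM in p21, p16 and control cells. With the replicate number as a block, Il1rn (adjusted p = 0.00348) and Il18bp (0.0379) passed between p21 and control cells by edgeR.

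**Figure D3:**
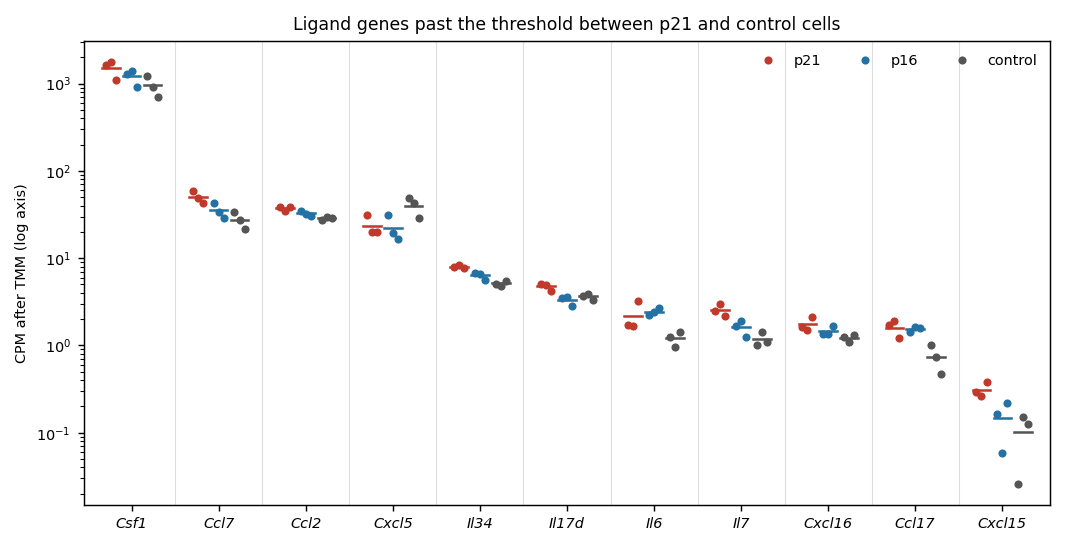
CPM after TMM (y axis, log scale) of the 11 ligand genes past the threshold between p21 and control cells, with a point per library and a bar at the group mean, p21, p16 and control from left to right. Csf1 lies above 700 CPM in every library, and Cxcl5 is the gene whose control libraries (29.2 to 48.8 CPM) lie on average above the p21 libraries (19.7 to 31.2 CPM).

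The promoters of 2 of the risen genes, Csf1 and Il6, and of 2 classical secretome genes that were scarce and not called, Cxcl1 and Cxcl2, are shown because all 4 hold the kB consensus, the binding motif of NF-kB. The sequences are the 160 bases before the start of the gene in RefSeq on GRCm38.p6, written in the gene's own direction, with the match to the consensus in capitals.
Csf1 (chr3:107760470-107760629, minus strand): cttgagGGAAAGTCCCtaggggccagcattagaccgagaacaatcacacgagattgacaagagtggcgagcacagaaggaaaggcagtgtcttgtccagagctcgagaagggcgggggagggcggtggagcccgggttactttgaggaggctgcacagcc
Il6 (chr5:30012954-30013113, plus strand): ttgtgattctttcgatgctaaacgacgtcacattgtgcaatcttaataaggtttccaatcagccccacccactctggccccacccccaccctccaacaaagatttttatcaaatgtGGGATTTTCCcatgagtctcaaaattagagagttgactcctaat
Cxcl1 (chr5:90891085-90891244, plus strand): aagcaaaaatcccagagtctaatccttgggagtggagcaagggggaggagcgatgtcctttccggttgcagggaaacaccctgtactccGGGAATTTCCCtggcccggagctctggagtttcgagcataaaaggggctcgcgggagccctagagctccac
Cxcl2 (chr5:90903739-90903898, plus strand): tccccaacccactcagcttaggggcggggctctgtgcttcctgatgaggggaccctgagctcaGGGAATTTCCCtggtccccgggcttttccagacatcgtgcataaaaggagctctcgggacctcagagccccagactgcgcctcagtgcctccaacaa
The consensus was searched on both strands of the 250 bases before the start, where 7.25% of 32851 RefSeq promoters held it. Of the 125 genes 95 had a promoter in RefSeq's table and 15 of these (15.8%) held the consensus. Of the 21 genes that passed between p21 and control cells 13 had a promoter and 3 held it (23.1%). Among all 59 tested members 45 had a promoter and 11 held it (24.4%), so the called genes showed no excess over them. A gene was counted if any of its promoters held the consensus, while the 7.25% is a share of promoters. The motif thus stood before genes that were called and genes that were not, and a match describes letters, not a bound site.

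Of the 24 receptor genes tested 14 were not called between p21 and control cells, and 3 of the 8 that fell belong to the interleukin 1 receptor family. Il1rl1 (chr1:40429570-40465415, plus strand) encodes ST2, the receptor of interleukin 33, and alternative transcripts give a membrane receptor and a secreted decoy, which the counts do not separate. It was at 165, 102 and 169 CPM in p21, 215, 132 and 124 CPM in p16 and 354, 366 and 321 CPM in control libraries. Both overexpressing groups lay wholly below the controls, and Il1rl1 was 2.39-fold lower in p21 than in control cells (-1.25 ± 0.23 SE, adjusted p = 0.00221). Il1r1, the receptor that transmits interleukin 1 signals, was at 24.9, 22.7 and 32.2 CPM in p21, 33.6, 30.2 and 42.7 CPM in p16 and 34.7, 44.6 and 52.4 CPM in control libraries, 1.65-fold lower in p21 than in control cells (-0.72 ± 0.18 SE, adjusted p = 0.0109). Il1rl2, the receptor of the interleukin 36 ligands, was at 3.61, 3.52 and 4.11 CPM in p21, 5.72, 4.78 and 6.54 CPM in p16 and 5.14, 6.58 and 6.93 CPM in control libraries. Its p21 libraries were the lowest, and it was 1.66-fold lower in p21 than in control cells (-0.73 ± 0.15 SE, adjusted p = 0.00428). These 3 calls held under all 17 alternatives. Not every tested gene of this family fell, as Il1rap and Il18rap were not called. The p21 libraries of Il1rap (19.7, 18.0 and 16.8 CPM) all stood above its control libraries (15.9, 14.9 and 15.7 CPM). Il18rap averaged 9.99 CPM in p21 and 8.67 CPM in control cells. Mast cells also express Il1rl1. The 9 mast cell or granulocyte markers in the table summed to 0.248 to 0.420 CPM in p21, 0.367 to 0.610 CPM in p16 and 0.456 to 0.852 CPM in control libraries. The 1 of them tested, Kit, averaged 0.0826 CPM in p21, 0.281 CPM in p16 and 0.328 CPM in control cells and was lower in p21 than in control cells (log2 fold change -1.98, adjusted p = 0.00839). Their part in the result was not tested.

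RefSeq gives Il1rl1, the receptor gene with the largest change among those called, 2 starts, both shown, 160 bases each on GRCm38.p6. Neither holds the kB consensus in the 250 bases searched.
Il1rl1 upstream start (chr1:40429410-40429569, plus strand): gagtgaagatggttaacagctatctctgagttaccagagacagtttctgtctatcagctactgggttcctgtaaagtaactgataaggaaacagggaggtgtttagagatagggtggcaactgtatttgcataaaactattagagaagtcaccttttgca
Il1rl1 downstream start (chr1:40439469-40439628, plus strand): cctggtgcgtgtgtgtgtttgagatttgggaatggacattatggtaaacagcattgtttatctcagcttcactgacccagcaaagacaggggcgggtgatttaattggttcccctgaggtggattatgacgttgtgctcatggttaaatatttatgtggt

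A cluster of 6 genes of the interleukin 1 receptor family lies on chromosome 1 (chr1:40074079-40551705 in GENCODE M21 on GRCm38), in 477.6 kb with no other protein-coding gene between them. Of the 6, Il1r1, Il1rl2 and Il1rl1 fell with p21, Il18rap was not called (adjusted p = 0.451), and Il1r2 and Il18r1 had too few reads to test. The monocyte chemoattractant cluster (chr11:82035571-82305690) holds 6 of the genes described, of which Ccl2 and Ccl7 rose, Ccl11 was not called, and Ccl12, Ccl8 and Ccl1 were not tested. In the CXC cluster (chr5:90759360-90905938) Cxcl5 fell, Cxcl15 rose at far lower counts, and Cxcl3, Cxcl1 and Cxcl2 were not called. Genes of a cluster are neighbours and are not independent measurements of it.

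**Figure D4:**
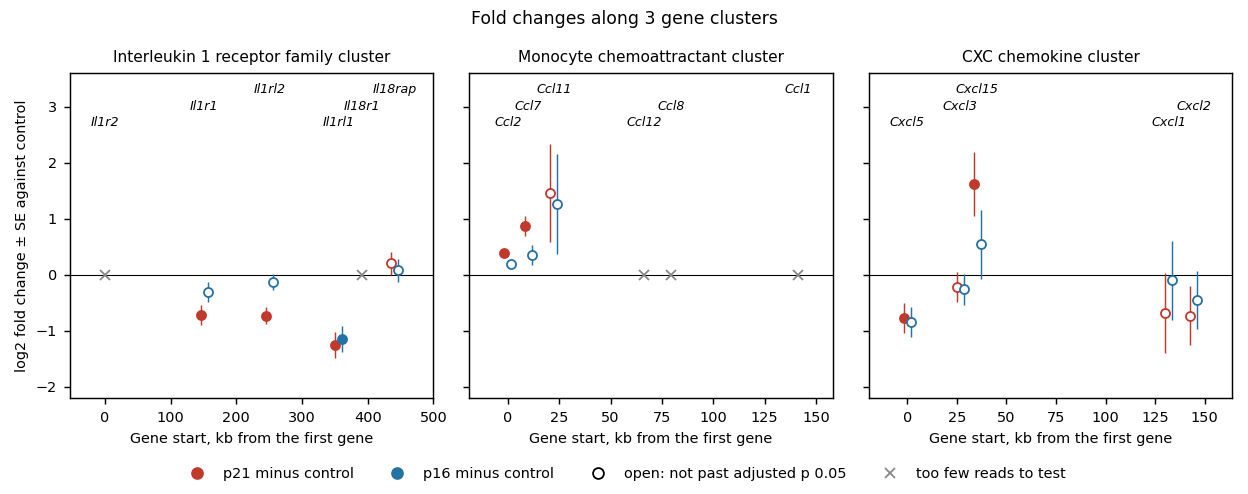
The log2 fold change with its standard error (y axis) is plotted against the distance of each gene's start from the first gene of its cluster (x axis, kb) for p21 minus control (red) and p16 minus control (blue), with filled points past the threshold and crosses for genes with too few reads. In the interleukin 1 receptor cluster 3 red points lie below 0 and are filled, and a single blue point, Il1rl1, is filled.

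Outside that family, 2 receptor genes rose and 5 fell. Il6st encodes gp130, the signalling chain shared by the receptors of Il6, Il11 and Lif. It was at 178, 182 and 219 CPM in p21, 222, 223 and 264 CPM in p16 and 242, 285 and 369 CPM in control libraries, 1.55-fold lower in p21 than in control cells (-0.63 ± 0.15 SE, adjusted p = 0.00748). Il4ra and Il13ra1 form a receptor of interleukins 4 and 13 and moved in opposite directions. Il4ra was at 187, 176 and 177 CPM in p21, 155, 142 and 146 CPM in p16 and 147, 151 and 130 CPM in control libraries, 1.26-fold higher in p21 than in control cells (0.34 ± 0.06 SE, adjusted p = 0.00228). Il4ra overlaps the antisense gene Gm44876 by at least 571 exon bases. Il13ra1 was at 28.5, 21.3 and 32.0 CPM in p21, 38.8, 33.5 and 41.0 CPM in p16 and 31.1, 47.4 and 52.1 CPM in control libraries, where p21 and control overlap in 1 control library. It was 1.60-fold lower in p21 than in control cells (-0.67 ± 0.19 SE, adjusted p = 0.0203), with an adjusted p of 0.0538 to 0.0735 without p21 replicate 1 or 2 or control replicate 2 or 3. Il10rb, the chain common to the receptors of interleukins 10 and 22, was at 38.8, 41.0 and 37.0 CPM in p21, 37.5, 35.6 and 36.5 CPM in p16 and 30.9, 32.8 and 29.2 CPM in control libraries, 1.26-fold higher in p21 than in control cells (0.33 ± 0.06 SE, adjusted p = 0.00163). The Gm21970 gene shares at least 167 exon bases with it on the same strand. The calls of Il6st, Il4ra and Il10rb held under all 17 alternatives.

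The other 3 called receptor genes were less firm. Il17rc, a chain of the interleukin 17 receptor, was at 14.3, 12.7 and 18.3 CPM in p21, 16.1, 16.9 and 21.7 CPM in p16 and 17.1, 21.9 and 24.3 CPM in control libraries, 1.398-fold lower in p21 than in control cells (-0.48 ± 0.17 SE, adjusted p = 0.0466). Il20rb, a chain of the receptors of interleukins 19, 20 and 24, was at 1.51, 1.24 and 1.56 CPM in p21, 1.29, 1.86 and 2.06 CPM in p16 and 2.15, 2.01 and 2.29 CPM in control libraries, 1.49-fold lower in p21 than in control cells (-0.58 ± 0.19 SE, adjusted p = 0.0368). Il27ra, which binds interleukin 27, was at 0.482, 0.234 and 0.805 CPM in p21, 1.18, 0.866 and 0.945 CPM in p16 and 0.939, 1.14 and 1.19 CPM in control libraries, 2.17-fold lower in p21 than in control cells (-1.12 ± 0.36 SE, adjusted p = 0.034). For Il20rb and Il27ra no p21 library reached a control library. The call of Il17rc was lost without p21 or p16 replicate 1 or 2 or control replicate 2 or 3 (adjusted p 0.0568 to 0.161), that of Il20rb without p16 replicate 2 or any p21 or control library (0.0526 to 0.123) or with replicates 1 and 2 alone (0.08), and that of Il27ra without p21 replicate 1 or 2 or control replicate 2 or 3 (0.0739 to 0.0999).

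**Figure D5:**
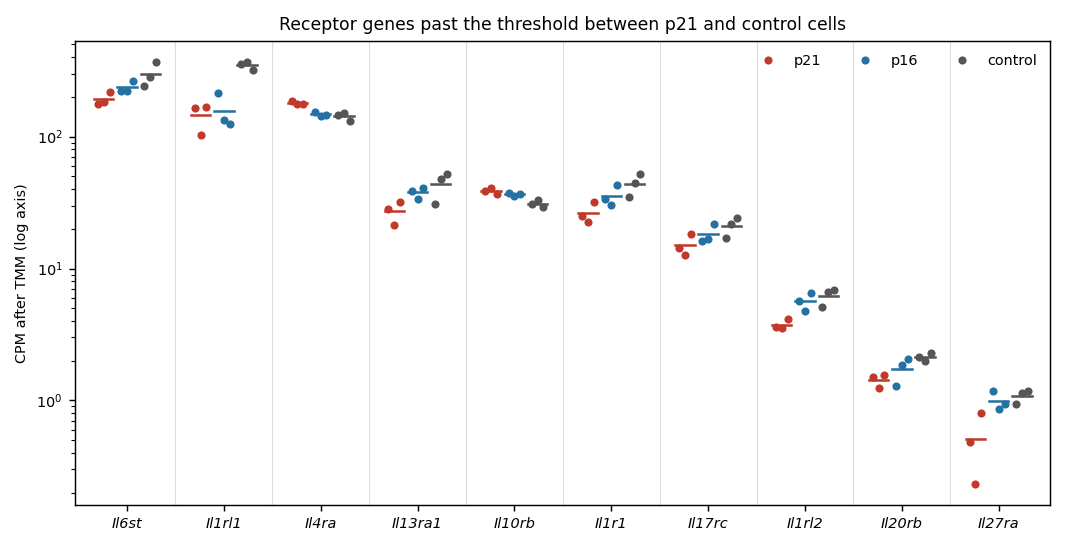
CPM after TMM (y axis, log scale) of the 10 receptor genes past the threshold between p21 and control cells, with a point per library and a bar at the group mean, p21, p16 and control from left to right. Il1rl1 shows the widest gap among the abundant genes, with p21 libraries at 102 to 169 CPM and control libraries at 321 to 366 CPM.

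The next comparison was of p16 with control cells. Of the 33 ligand genes 1 rose and none fell, and of the 24 receptor genes 1 rose and 1 fell, so that 3.03% and 8.33% passed, against 7.22% of all genes tested (3.57% higher and 3.65% lower). At an unadjusted p below 0.05 the edgeR test gave 5 higher and 2 lower ligand genes, and 2 higher and 2 lower receptor genes. Scaled by library size, 39.4% of all calls were higher (444 higher, 683 lower), against 49.4% (520 and 532) with TMM. Ccl17 was 2.10-fold higher in p16 than in control cells (1.07 ± 0.27 SE, adjusted p = 0.0463), Il10rb was 1.18-fold higher (0.24 ± 0.06 SE, adjusted p = 0.0376), and Il1rl1 was 2.21-fold lower (-1.14 ± 0.23 SE, adjusted p = 0.0206). Between p16 and control libraries 13 of the 59 tested members (22%) did not overlap, these 3 among them, against 28.7% of all genes tested. In replicates 1 and 2 alone their adjusted p was 0.0991, 0.122 and 0.0509, in that order, while Il6 passed (log2 fold change 1.09, adjusted p = 0.034). Leaving out a library ended the call of Ccl17 for all but p21 replicate 3 and control replicate 1 (adjusted p 0.058 to 0.140), that of Il10rb for all but p21 replicates 2 and 3 (0.0524 to 0.121), and that of Il1rl1 for p16 replicates 2 and 3 and control replicate 2 (0.0647 to 0.0958).

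Same-numbered p16 and control libraries deviated together to differing degrees, most clearly in replicate 3 (correlation 0.55). For p16 replicate 2 the correlation was 0.11 with control replicate 2 and 0.30 with control replicate 1. A fit with the replicate number as a block called 6 ligand genes (18.2%) and 5 receptor genes (20.8%) between p16 and control cells. Of all genes tested this fit called 17%. In it Cxcl5 was lower (log2 fold change -0.87, adjusted p = 0.000559), and Il6 (1.03, adjusted p = 0.00693), Ccl7 (0.37, adjusted p = 0.00168) and Csf1 (0.36, adjusted p = 0.0212) were higher in p16 than in control cells. Without the block Il6 had an adjusted p of 0.0541, and Cxcl5, Ccl7 and Csf1 had 0.0927, 0.249 and 0.409. Il1r1 (-0.31, adjusted p = 0.0342) and Il6st (-0.32, adjusted p = 0.00715) were lower in the blocked fit. The comparisons of p21 and of p16 share the control libraries.

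The third comparison set p21 against p16 directly, which tests the difference between their effects. Of the ligand genes only Il17d passed in it, 1.45-fold higher in p21 than in p16 cells (log2 fold change 0.53 ± 0.13 SE, adjusted p = 0.0303). Of the receptor genes Il4ra was higher (1.22-fold, 0.29 ± 0.06 SE, adjusted p = 0.0175) and Il1rl2 lower (1.52-fold, -0.60 ± 0.15 SE, adjusted p = 0.0316). These are 3.03% of the ligand and 8.33% of the receptor genes tested, against 12.8% of all genes tested (6.19% higher and 6.64% lower). Between p21 and p16 libraries 13 of the 59 tested members (22%) did not overlap, these 3 among them, against 36% of all genes tested. In replicates 1 and 2 alone Il1rl2 did not pass (adjusted p = 0.058), while Ccl7 (0.0442), Cxcl12 (0.0313), Il6st (0.0349) and Il27ra (0.0393) passed. The calls were lost without p21 replicate 1 or 2 or any p16 library for Il17d (adjusted p 0.0592 to 0.121), without p21 replicate 1 or 2, p16 replicate 1 or 3 or control replicate 2 for Il1rl2 (0.0516 to 0.122), and without p21 replicate 1 or p16 replicate 2 or 3 for Il4ra (0.0545 to 0.0808). Ccl17 had a log2 fold change of 0.05 ± 0.26 SE between p21 and p16 cells (adjusted p = 0.928) and Il1rl1 one of -0.11 ± 0.23 SE (adjusted p = 0.787), which does not show that the effects were alike.

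With the replicate number as a block, 7 ligand genes (21.2%) and 8 receptor genes (33.3%) passed between p21 and p16 cells, against 24% of all genes tested. Ccl7 (log2 fold change 0.52, adjusted p = 0.000133), Il7 (0.67, adjusted p = 0.0117), Csf1 (0.31, adjusted p = 0.0279) and Il34 (0.33, adjusted p = 0.0381) were higher in p21 than in p16 cells. Cxcl12 was lower (-0.68, adjusted p = 2.41e-05). Without the block their adjusted p was 0.0902, 0.0729, 0.414, 0.0576 and 0.257 in the same order. The receptor genes Il6st (-0.29, adjusted p = 0.00699), Il1r1 (-0.42, adjusted p = 0.00662), Il13ra1 (-0.48, adjusted p = 0.039), Il27ra (-1.03, adjusted p = 0.0447) and Il17rc (-0.27, adjusted p = 0.048) were lower in p21 than in p16 cells in the blocked fit and were not called without it.

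The wider pathway was read from a list of 66 other genes for chemokine receptors, related cytokine receptors, signal transducers and feedback inhibitors, of which 48 were tested. With p21, 10 rose and 6 fell relative to control cells (33.3%, against 39.9% of all genes tested), with p16 3 rose and 1 fell (8.33%, against 7.22%), and between p21 and p16 cells 3 were higher and none lower (6.25%, against 12.8%). Cxcr6, the receptor of Cxcl16, was at 19.9, 15.1 and 17.4 CPM in p21, 12.7, 12.1 and 10.2 CPM in p16 and 6.70, 8.38 and 6.68 CPM in control libraries, with no overlap between any of the 3 groups. It was 2.41-fold higher in p21 than in control cells (1.27 ± 0.13 SE, adjusted p = 9.94e-05), 1.61-fold higher in p16 than in control cells (adjusted p = 0.019), and 1.498-fold higher when p21 was set against p16 cells (adjusted p = 0.0197). Csf1r, the receptor of Csf1 and Il34, was at 2.16, 3.67 and 4.22 CPM in p21, 1.11, 1.79 and 1.98 CPM in p16 and 1.75, 2.07 and 2.02 CPM in control libraries. It was 1.71-fold higher in p21 than in control cells (adjusted p = 0.043 by edgeR), and against p16 cells the ratio was 2.05-fold (adjusted p = 0.0366). Its exons overlap those of the protein-coding gene Hmgxb3 on the other strand by at least 873 bases. Cx3cr1, the receptor of Cx3cl1, averaged 0.749, 0.186 and 0.245 CPM in p21, p16 and control cells and was 3.02-fold higher in p21 than in control cells (adjusted p = 0.00742), and against p16 cells the ratio was 3.96-fold (adjusted p = 0.0114). Csf1r and Cx3cr1 are themselves macrophage markers, and Lyz2, another of them, was at 12.3, 16.3 and 23.3 CPM in p21, against 2.97 to 4.85 CPM in p16 and 3.13 to 4.64 CPM in control libraries.

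Xcr1, the receptor of lymphotactin, was 1.97-fold higher in p21 than in control cells (adjusted p = 0.0348). Crlf2, a chain of the receptor of thymic stromal lymphopoietin, was 1.24-fold higher (adjusted p = 0.0246), and Cntfr, the receptor of ciliary neurotrophic factor, 1.36-fold (adjusted p = 0.0464), while Clcf1, a cytokine that acts through Cntfr and gp130, was 1.17-fold lower (adjusted p = 0.0287). Among signal transducers Irak2, a kinase of the interleukin 1 receptor pathway, was 1.38-fold higher in p21 (adjusted p = 0.00039) and 1.36-fold higher in p16 than in control cells (adjusted p = 0.00703), and Tollip, an adaptor of that pathway, was 1.25-fold higher in p21 than in control cells (adjusted p = 0.00505). Myd88 (1.21-fold, adjusted p = 0.0115), Stat5a (1.20-fold, adjusted p = 0.0121) and Stat5b (1.15-fold, adjusted p = 0.0152) were lower in p21 than in control cells, and Stat5a also in p16 cells (1.25-fold, adjusted p = 0.0215). Of the feedback inhibitors Socs1 was lower (1.47-fold, adjusted p = 0.0423) and Cish higher (1.31-fold, adjusted p = 0.00874) in p21 than in control cells, and Socs5 was higher in p16 than in control cells (1.11-fold, adjusted p = 0.0451).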

How the data were processed

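The authors deposited a table of whole-number read counts per gene, not normalised. The submitters' processing notes name the build mm10 (GRCm38) and the tools Bowtie2 2.2.6, TopHat2 2.0.14, featureCounts 1.4.6 and Subread. The strand setting is not given in the sources used here, and the TruSeq version 2 kit does not mark strand. Groups came from the sample titles. Genes kept by filterByExpr (14572) were tested in edgeR 4.0.16 (R 4.3.3, limma 3.58.1) by quasi-likelihood after TMM scaling, in 1 fit of 3 group means to 9 libraries, with Benjamini-Hochberg adjustment over all genes tested and a threshold of 0.05. The fit was also run on simulated counts with known fold changes, and the outcome is not reported here. Those counts held no difference between replicate numbers, so they do not cover the shift of replicate 3. CPM per kb used GENCODE M21 exon unions. An exon overlap is given as the longest stretch shared by a single pair of exons, so the total may be larger. Promoters are those of RefSeq.

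The members, lists and tests were chosen with earlier results of these data known. Genes named were those past the threshold in any comparison, the 2 most abundant of each role, a panel of 17 genes of the classical secretome, and the called genes of the pathway list, of which 2 are counted but not reported by name here. Deviations of same-numbered libraries correlated at 0.25, 0.11 and 0.55 (p16 and control) and 0.16, 0.29 and 0.48 (p21 and p16), all above 0.1, so blocked values stand beside results they change. That pairing rests on the data, not on the labels. Alternatives were DESeq2 1.42.0, library size scaling, other filters, a replicate block, a term for replicate 3, replicates 1 and 2 alone, the 2 compared groups alone, and each library left out. The labels do not say whether the p16 libraries were prepared apart. If they were, that and p16 cannot be told apart.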

Additional observations from a re-analysis of the deposited data

Results flagged for a closer look

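The effects of p21 and p16, both set against the empty vector, differed past the threshold for 3 genes (edgeR's quasi-likelihood test of p21 minus p16, adjusted p below 0.05). Il17d, a ligand of the interleukin 17 family, had a log2 difference of 0.53 (adjusted p = 0.0303) and was higher in 3 of 3 p21 libraries than in any p16 library. Il4ra, the receptor of interleukin 4, had a log2 difference of 0.29 (adjusted p = 0.0175), again with all 3 p21 libraries above. Il1rl2, the receptor of the interleukin 36 ligands, had a log2 difference of -0.60 (adjusted p = 0.0316), with all 3 p21 libraries below the p16 libraries. In each case at least 3 of the 9 fits that leave out a library lost the call.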

How the results depend on the processing

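Of the 21 genes called between p21 and control cells, 11 passed under all 17 alternatives, while of the 3 called between p16 and control cells, and of the 3 between p21 and p16 cells, none did. Between p21 and control cells 7 ligand genes passed with library size scaling and 6 with the compared groups alone, against 11 in the 9-library fit, and leaving out a library gave 6 to 12 ligand genes, 6 to 13 receptor genes and 4224 to 5788 genes in all. The ligand count was 6 without control replicate 2 and 7 without p21 replicate 1 or control replicate 1, and the lowest receptor count, 6, without p21 replicate 1, p21 replicate 2 or control replicate 2.

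Between p21 and control cells the fit of the compared groups alone ended the calls of Csf1, Cxcl15, Cxcl16, Il6, Il17d, Il17rc and Il27ra (adjusted p 0.0504 to 0.0738), library size scaling those of Csf1, Cxcl15, Cxcl16 and Il17d (0.0504 to 0.0669), no filter those of Cxcl15 and Cxcl16 (0.07 and 0.0561), a filter of 1 CPM that of Il17rc (0.0547) and DESeq2 that of Cxcl5 (0.0647). Between p16 and control cells the compared groups alone ended those of Ccl17 (0.0731) and Il10rb (0.0606).

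Between p16 and control cells all genes called numbered 1808 with DESeq2, 593 in replicates 1 and 2 alone, 555 with the compared groups alone, 2473 with the replicate block and 2645 with a term for replicate 3, against 1052. Ligand genes called there numbered 3 with DESeq2, 2 with no filter, 2 with a filter of 1 CPM, 6 with the block and 6 with the term, against 1. Receptor genes called there numbered 5 with the block, 5 with the term, 1 with the compared groups alone and 0 in replicates 1 and 2 alone (6 at an unadjusted p below 0.05, edgeR), against 2. Between p21 and p16 cells all genes called numbered 3496 with the block and 3622 with the term, against 1870. Ligand genes numbered 5 with DESeq2, 2 with no filter, 2 with a filter of 1 CPM, 3 in replicates 1 and 2 alone, 7 with the block and 8 with the term, against 1, and receptor genes 8 with the block and 8 with the term, against 2. Leaving out a library gave 222 to 949 genes, 0 to 3 ligand and 0 to 2 receptor genes between p16 and control cells, and 600 to 2464 genes, 0 to 2 ligand and 0 to 4 receptor genes between p21 and p16 cells. The fits with 0 calls still held 3 to 9 such genes at an unadjusted p below 0.05 by edgeR. The cause of these changes was not tested.

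Same-numbered p21 and control libraries correlated at 0.18, 0.03 and 0.49. As 0.03 lies below 0.1, the numbers were not taken to pair them. In both of these groups replicate 3 still differed from replicates 1 and 2 in sex-linked RNA. With the replicate block 12 ligand and 13 receptor genes passed there, and 7241 genes in all, Cxcl12 (log2 fold change -0.56, adjusted p = 3.34e-06), Il1rn (-1.41, adjusted p = 0.00348) and Il18bp (adjusted p = 0.0379) among them. Not every library correlated best with its own number, p21 replicate 2 with control replicate 1 at 0.36.

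Among genes called in at least 1 fit, the direction of 10 values that were not called turned when a library was left out. A further 12 values turned under some alternative, of Ccl5, Cx3cl1, Cxcl1, Cxcl2, Cxcl10, Il1a, Il11 and Il15, which no fit called. For the 10, log2 fold changes with a library left out ran, between p21 and control cells, from -0.23 to 0.051 for Lif, between p16 and control cells from -0.24 to 0.47 for Cxcl12, from -1.67 to 0.37 for Il1rn and from -0.0051 to 0.095 for Il4ra, and between p21 and p16 cells from -0.088 to 0.21 for Ccl17, from -0.18 to 0.39 for Cxcl5, from -0.25 to 0.083 for Il18bp, from -0.26 to 0.18 for Il1rl1, from -1.85 to 0.18 for Il1rn and from -0.55 to 0.0077 for Il6. At these depths 3 reads are 0.0391 to 0.0525 CPM, so a gene such as Il1b, with 1 read in all, was not detectable above that level, which does not show that it is absent. These limits cover counting error only.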
